A study of Mus musculus with 12 samples.

Results

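Ribosome protected fragments (RPFs) and total cytoplasmic RNA of activated CD4 T cells that lack the cap methyltransferase gene *Rnmt* were compared gene by gene, to ask which mRNAs carried many or few ribosomes for their amount. Of the 12 libraries of the series, 6 entered this comparison: 3 of RPFs and 3 of total RNA from *Rnmt* cKO cells. The other 6, with the same kinds of library from control cells, were used where a difference between genotypes was tested. The *Rnmt* cKO mice were female and carried the genotype Rnmt fl/fl CD4cre +, in which Cre recombinase driven by *Cd4* removes a loxP-flanked *Rnmt* exon during T cell development. Control mice were female and Rnmt fl/fl CD4cre -, so both genotypes carried the floxed alleles and the controls lacked Cre. Naive CD4 T cells were isolated magnetically from lymph nodes and activated for 20 h on plates coated with antibodies to CD3 (5 ug/ml) and to the costimulatory receptor CD28 (1 ug/ml). Cycloheximide, which stalls elongating ribosomes, was added at 0.1 mg/ml for 1 min before lysis. The labels number the libraries of each group from 1 to 3, and do not say whether an RPF library and a total RNA library with the same number came from the same animal.

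RNMT methylates the guanosine that is added to the 5′ end of nascent mRNA, and the resulting cap is bound by EIF4E, through which the small ribosomal subunit is recruited. In ribosome profiling, RNase removes mRNA that is not covered by a ribosome, so that the surviving fragments mark the coding sequences being read. The ratio of RPF to total RNA for a gene is its translation efficiency (TE). TE was expressed here as a log2 ratio relative to the typical gene of the same cells, so a log2 TE of 0 is the usual ratio and says nothing about the absolute amount of translation. Levels are given as CPM, counts scaled to a common library size and normalised over the 6 libraries of a genotype.

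The 3 total RNA libraries of *Rnmt* cKO cells held 15079703, 18803007 and 22629563 counts on genes. The 3 RPF libraries held 8349463, 10166729 and 4123271, so RPF library 3 was the shallowest. RPF library 3 also stood apart in composition. Nuclear protein-coding genes took 88.9% of its counts, against 92.9% and 92.7% in RPF libraries 1 and 2. Small noncoding RNA took 5.28% of it, against 3.33% and 3.15%, and 31.0% of its reads mapped to several places, against 23.5% and 26.3%. Mitochondrial rRNA took 18.7% to 22.9% of gene counts in total RNA, against 2.30% to 3.69% in RPFs. Scaling by the sum of counts instead of by the bulk of genes (TMM) would raise the median log2 TE of all genes by 0.18, and all values below are on the TMM scale.

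The *Rnmt* gene was used to check the genotype labels. As a share of all gene counts, *Rnmt* stood at 31.1 ± 2.38 CPM in total RNA (SD, n = 3) and 10.2 ± 0.684 CPM in RPFs (SD, n = 3) of *Rnmt* cKO cells. Control cells had 93.3 ± 1.58 CPM (SD, n = 3) and 96.0 ± 9.21 CPM (SD, n = 3), and the genotypes did not overlap in either kind of library. On the same scale of all gene counts, the cells carried the defining genes of CD4 T cells, with *Cd4* at 279 to 323 CPM in total RNA and 642 to 664 CPM in RPFs. The 12 CD4 T cell markers summed to 3470, 3571 and 4069 CPM in total RNA and 6003, 5484 and 5916 CPM in RPFs, with *Cd28* the most abundant. The 11 B cell markers summed to 389, 395 and 227 CPM in total RNA and 540.4, 633 and 142 CPM in RPFs, lowest in library 3 of both kinds. *Ighm* was the most abundant of them, and none was at 0 in all 6 libraries. The 2 CD8 markers summed to 10.1 to 39.5 CPM and the 12 myeloid markers to 1.59 to 6.69 CPM. *Fcgr1*, a macrophage receptor, was at 0 in all 6 libraries, and *Cd68* was the most abundant myeloid marker. The 8 NK cell markers summed to 34.1 to 119 CPM, led by *Eomes*, and the 5 regulatory T cell markers to 51.3 to 68.6 CPM, led by *Gpr83*. The part of these cells in the TE values was not tested.

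TE spread widely within *Rnmt* cKO cells. Of 11779 genes tested with the quasi-likelihood test of edgeR, 4159 (35.3%) had a higher and 4341 (36.9%) a lower TE than the typical gene at an adjusted p under 0.05, 72.2% in all. A difference beyond 2-fold was called for 1712 (14.5%) and 2220 (18.8%) of them. Among the 10389 protein-coding genes, 3726 (35.9%) were higher and 3683 (35.5%) lower (71.3% either way), and the median log2 TE was 0.02. Between the 5th and the 95th percentile, log2 TE of protein-coding genes ran from -1.86 to 1.54, and its median standard error was 0.11. The RPF and total RNA libraries did not overlap for 75.5% of them. A call of a different TE was thus the usual outcome for a gene. Of all genes tested, 10176 passed the filter in all 6 libraries, 887 in the total RNA libraries alone and 556 in the RPF libraries alone. Genes of the last groups entered because of the kind of library in which they were high, and of the 556 none was called lower.

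**Figure D1:**
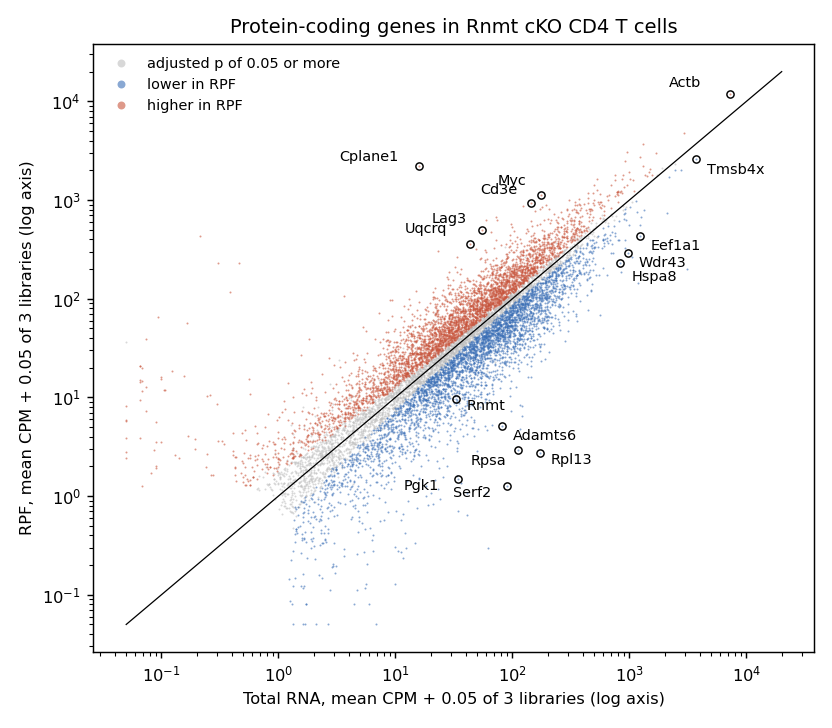
Mean CPM of 3 RPF libraries (y axis, log scale, with 0.05 added) against mean CPM of 3 total RNA libraries (x axis, log scale, with 0.05 added) for protein-coding genes of *Rnmt* cKO cells, coloured by the call, with the line of equal CPM and 16 genes named. Most genes lie within a few-fold of the line across the whole range of abundance, *Actb* is at the top, and *Rpl13*, *Serf2*, *Rpsa* and *Pgk1* lie far below the line.

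RPFs are short, so a gene that shares its coding sequence with other genes is hard to count. For each protein-coding gene, the share of 30-base windows of its coding sequence that occur in no other annotated gene was computed, here called the unique share. The first window of 3 genes with a very low TE and of 2 genes whose windows are all unique are shown, 5′ to 3′ along the mRNA as in the GENCODE transcripts, with the start codon in capitals.
Rpl13: ATGgcgcccagccggaatggcatgatactg
Rpsa: ATGtccggagcccttgacgtcctgcagatg
Pgk1: ATGtcgctttccaacaagctgactttggac
Lag3: ATGagggaggacctgctccttggctttttg
Map1lc3b: ATGggagatccgggtgccgggagcgctgaa
The *Rpl13* window occurs in 3 other genes (*Gm12918*, *Gm15710* and *Rpl13-ps6*), the *Rpsa* window in 3 and the *Pgk1* window in 1 (*Gm5537*). The windows of *Lag3* (chr6:124904361-124911705) and *Map1lc3b* (chr8:121590361-121598760) occur in 0 others. *Rpl13* (GRCm38, chr8:123102350-123105244) and *Rpsa* (chr9:120127689-120132369) encode ribosomal proteins and *Pgk1* (chrX:106187100-106203699) a glycolytic kinase, and the unique share of all 3 was 0%.

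TE moved with the unique share. In the 333 protein-coding genes with a unique share under 10%, the median log2 TE was -0.87 and 60.7% were called lower. The 637 genes from 10 to 50% had a median of -0.18, the 1362 genes from 50 to 90% a median of -0.03, and the 8036 genes over 90% a median of 0.05, with 33.3% called lower. A log2 TE under -4 was found for 40 of the 333 genes under 10%, and for 14 of the 8036 genes over 90%. For *Rpl13*, total RNA was 170, 170 and 178 CPM and RPFs were 2.22, 2.04 and 3.74 CPM. For *Pgk1*, total RNA was 31.3, 33.2 and 37.3 CPM and RPFs were 1.66, 1.48 and 1.17 CPM. A low unique share and a low TE therefore stood together for these genes, and the part of shared sequence in their values was not tested further. Where it matters, values are also given for the 7529 protein-coding genes with a unique share of at least 90% that passed the filter in all 6 libraries, called well-separated genes below. That selection was made after the values were seen. Of these, 37.3% were called higher and 33.8% lower (71.1% either way), with a median log2 TE of 0.05.

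**Figure D2:**
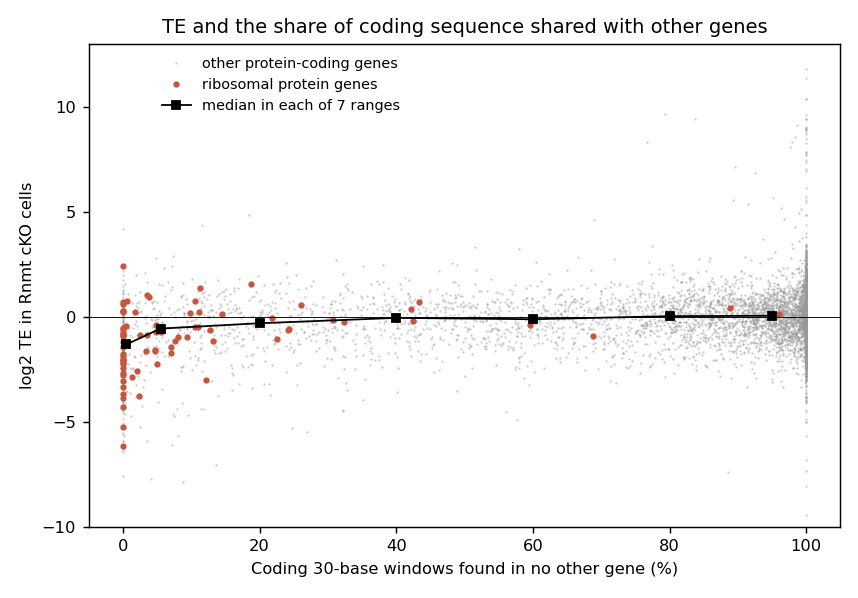
log2 TE in *Rnmt* cKO cells (y axis) against the percentage of coding 30-base windows found in no other gene (x axis), with ribosomal protein genes in red and the median of all genes in each of 7 ranges as black squares. The median rises towards 0 as the unique share increases, and most ribosomal protein genes lie at the left.

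The 10 protein-coding genes with the lowest TE that were called, did not overlap between libraries and reached an average log2 CPM of 4 were *Gm2000*, *Srprb*, *Rpl13*, *Serf2*, *Wdr77*, *Tmed2*, *Rpsa*, *Dgcr2*, *Map2k7* and *Lypla1*. Their log2 TE ran from -7.89 to -4.66, and their unique share from 0% to 9.49%. Of the 10, 7 passed the filter in total RNA libraries alone. The 10 genes with the highest TE by the same rule included *Chadl*, *Kcnj15*, *Adgrb3*, *Vwf*, *1700020L24Rik*, *Cplane1*, *Zfand1* and *B3gnt9*. Some of these, such as the inward rectifier potassium channel *Kcnj15* and von Willebrand factor *Vwf*, are known from other tissues than T cells. Of these 10 genes, 7 passed in RPF libraries alone, and standard errors of log2 TE ran from 0.52 to 2.74. *Chadl* had 0.292, 0.111 and 0.0928 CPM in total RNA and 272, 196 and 843 CPM in RPFs. *Cplane1* had 14.8, 18.9 and 13.9 CPM in total RNA and 1274, 715 and 4645 CPM in RPFs, highest in RPF library 3. *Zfand1* had 14.3, 35.9 and 270.5 CPM in RPFs, so a single library carried most of its signal. Fitted ratios of genes with almost no total RNA depend on the small count added to each library, and are not bounds.

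Among well-separated genes, the 10 with the lowest TE by the same rule were *Adamts6*, a secreted metalloprotease, *Tmem170b*, *Dnajc27*, *Map1lc3b*, the autophagosome protein LC3B, *Chml*, a Rab escort protein, *Usp31*, a deubiquitinase, *mt-Nd1*, the zinc finger genes *Zbtb37* and *Zfp329*, and *Fam126b*. Their log2 TE ran from -4.0 to -2.96 with standard errors of 0.12 to 0.21, and the median length of their 3′ UTRs was 3961.5 bases, from 0 in *mt-Nd1* to 16999. *Map1lc3b* had 45.2, 44.9 and 47.4 CPM in total RNA and 4.21, 4.92 and 5.37 CPM in RPFs. Its ratio was 9.61-fold lower than that of the typical gene. Per length, with RPFs divided by coding and total RNA by transcript length and centred on all genes, its log2 TE was -1.96 in place of -3.27. *Tmem170b* went from -3.62 to -0.47 and *Zbtb37* from -3.05 to -0.44 on that scale, and *Adamts6* from -4.0 to -4.08. *Adamts6* had 82.1, 65.1 and 95.7 CPM in total RNA and 5.43, 4.36 and 5.61 CPM in RPFs, giving a 16.0-fold lower ratio. Both genes were chosen by a rule that required no overlap of the libraries, so nothing is read from their separation.

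The highest TE of well-separated genes belonged to *B3gnt9*, *Sf3a2*, *Ankrd60*, *Apbb1ip*, *Tmem39b*, *Lag3*, *Laptm5*, *Sp2*, *Uqcrq* and *Pnpla2*. Their log2 TE ran from 3.01 to 4.39, and the median length of their 3′ UTRs was 624.5 bases. *Lag3* is an inhibitory receptor that binds MHC class II, *Laptm5* a lysosomal protein that lowers T cell receptor levels, and *Apbb1ip* an adaptor that links Rap1 to integrins. *Lag3* had 49.8, 72.3 and 41.9 CPM in total RNA and 485, 555 and 452 CPM in RPFs, a 9.10-fold higher ratio than the typical gene (log2 TE 3.19, SE 0.22, edgeR adjusted p = 3.0e-05). *Laptm5* had 68.9, 91.9 and 60.3 CPM in total RNA and 589.9, 639 and 663 CPM in RPFs. *Sf3a2*, a splicing factor subunit, had 19.4, 35.2 and 14.8 CPM in total RNA and 284, 331 and 305 CPM in RPFs. The rule that chose these genes required that the libraries of the 2 kinds do not overlap, so nothing is read from their separation. *Ankrd60* was less certain, with 20.4 CPM in total RNA library 1 against 3.16 and 3.16 CPM in libraries 2 and 3 (SE of log2 TE 0.95).

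The 10 protein-coding genes with the most RPFs were *Actb*, *Hsp90ab1*, *Tubb5*, *Ncl*, *Atp5b*, *B2m*, *Tmsb4x*, *Pfn1*, *Eef2* and *Hnrnpu*. *Actb*, cytoplasmic actin, had 7737, 7122 and 7006 CPM in total RNA and 11785, 12180 and 11800 CPM in RPFs, a log2 TE of 0.71 (SE 0.07). The TE of *Ncl*, which encodes the nucleolar protein nucleolin, was 1.70 (SE 0.20), and that of *Tubb5*, a beta tubulin, 1.5 (SE 0.07). *Pfn1*, the actin monomer binding protein profilin, had a log2 TE of 1.44 and *B2m*, the light chain of MHC class I, 1.15. These genes were chosen by RPF level, the numerator of TE, so nothing is read from the number called higher. *Tmsb4x*, which encodes the actin sequestering peptide thymosin beta 4, was called lower, with 3495, 3374 and 4243 CPM in total RNA and 2720, 2353 and 2697 CPM in RPFs (log2 TE -0.52, SE 0.10). Per length its value turned to 0.96, and that of *Hsp90ab1* turned from 0.69 to -0.13. *Eef2*, the translocase of elongation, had a log2 TE of -0.09 (SE 0.09) and was not called.

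**Figure D3:**
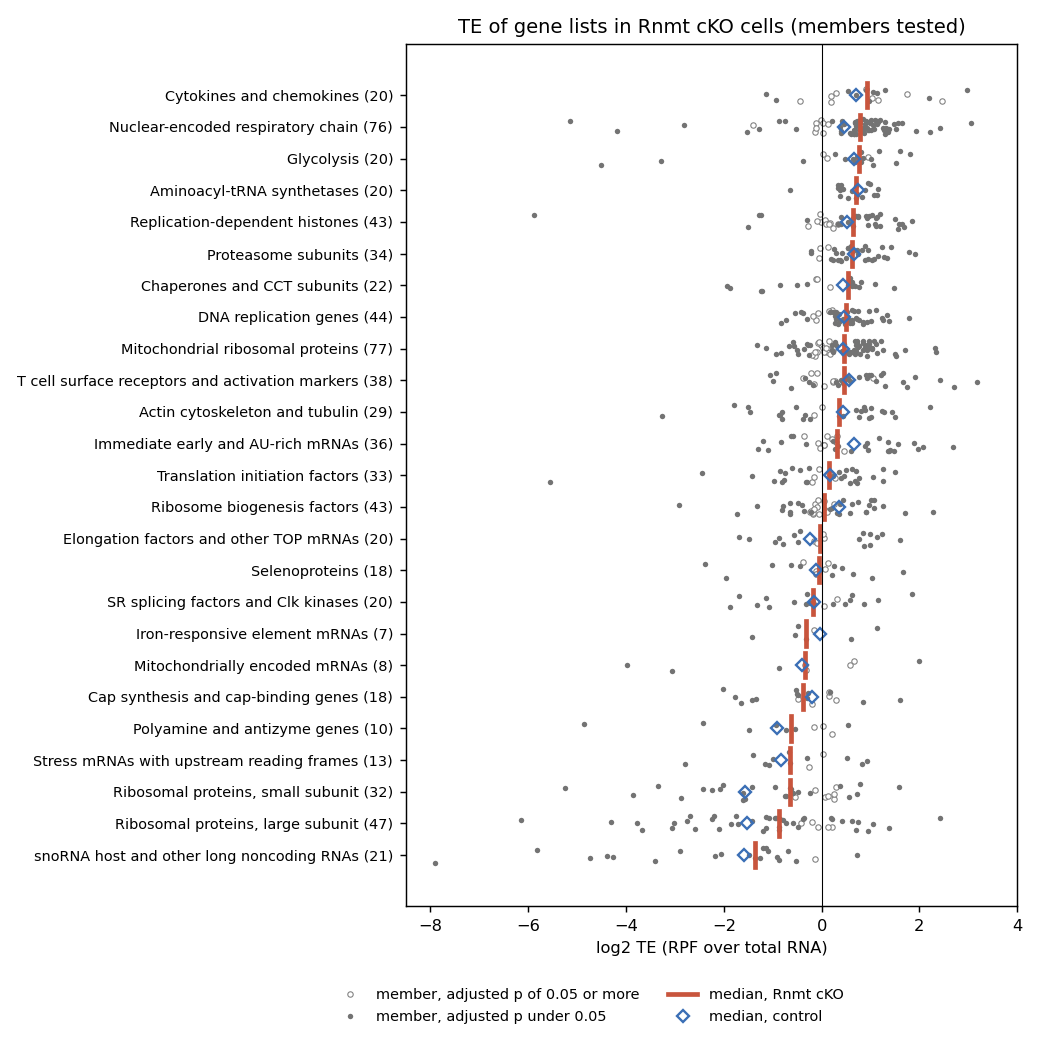
log2 TE (x axis) of each tested member of 25 gene lists in *Rnmt* cKO cells (filled where the adjusted p was under 0.05), with the number tested in brackets, the median of *Rnmt* cKO cells as a red bar and that of control cells as a blue diamond. Lists of cytokines, respiratory chain and glycolysis have medians of 0.77 to 0.93, and ribosomal proteins and noncoding RNAs have the lowest.

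Genes of the translation machinery differed by class. Here and in the lists that follow, the highest and lowest members are taken from the abundant ones, whose log2 CPM averaged 4 or more. Ribosomal protein genes, whose mRNAs start with a terminal oligopyrimidine (TOP) motif, stood lowest. Of 32 small subunit genes 5 were called higher and 20 lower, with a median log2 TE of -0.64 that was -0.99 per length. Of 47 large subunit genes 10 were higher and 32 lower, with a median of -0.88 that was -0.85 per length. Among all protein-coding genes 35.9% were higher and 35.5% lower. The unique share of these genes was small, with a median of 3.48% over all 79. In the 32 with a share under 0.5% the median was -1.80, in the 22 from 0.5 to 10% it was -0.95, in the 15 from 10 to 30% -0.49, and in the 10 above 30% -0.03. Medians were lower where more of the sequence is shared with other genes, and 3 of the 10 best separated were higher and 3 lower. *Rps26* and *Rps10* of the small subunit were highest among abundant members (log2 TE 1.59 and 0.78), and *Rpsa* and *Rps7* lowest (-5.25 and -2.88). In the large subunit *Rpl37* and *Rpl6* were highest (1.38 and 1.05).

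Of 20 elongation factors and other TOP mRNAs, 8 were called higher and 8 lower, near the 35.9% and 35.5% among protein-coding genes. Their median log2 TE was -0.03, which was 0.15 when scaled by library size and -0.25 per length. *Eef1a1*, which delivers aminoacyl-tRNA to the ribosome, had 1258, 1224 and 1191 CPM in total RNA and 451, 473 and 385 CPM in RPFs, a log2 TE of -1.49 (SE 0.09) at a unique share of 11.5%. *Tpt1*, which encodes the growth-related protein TCTP, had a log2 TE of -0.88 (SE 0.10) at a unique share of 0%. In contrast the subunits of the initiation factor eIF3 that are counted among TOP mRNAs were high, with *Eif3f* at 1.59 (SE 0.09) and *Eif3h* at 1.22 (SE 0.11). The poly(A) binding protein gene *Pabpc1* stood at 1.00 (SE 0.18). The 6 well-separated members had a median of 0.92, with 4 higher and 2 lower.

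Of 33 initiation factor genes, 15 were called higher and 13 lower, beside 35.9% higher and 35.5% lower among all protein-coding genes, with a median log2 TE of 0.15, which was -0.21 per length. *Eif5b* (1.51) and *Eif5a* (1.25) were highest among abundant members. *Eif4a1*, the cap complex helicase, had a log2 TE of -2.44 (SE 0.11) at a unique share of 1.01%, and *Eif4e*, the cap binding subunit, -1.42 (SE 0.10) at 21.1%. Per length *Eif4a1* stood at -2.92, whereas *Eif4e* turned to 0.49. The 20 cytoplasmic aminoacyl-tRNA synthetases charge tRNAs. For 19 of them TE was higher and for 1 it was lower, with a median of 0.70, although per length the median was -0.04. *Wars* (1.16) and *Vars* (1.14) were highest. *Eprs*, which charges both glutamate and proline tRNA, was the exception, with 668, 674 and 699 CPM in total RNA and 431, 487 and 395 CPM in RPFs (log2 TE -0.64, SE 0.09).

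Of 13 tested mRNAs known to be held back by upstream open reading frames, 8 were called lower and 3 higher, with a median log2 TE of -0.64. Among all protein-coding genes, 35.5% were lower and 35.9% higher, with a median of 0.02. Counts cover all exons of a gene, so RPFs on the upstream frames are included and the main frame was not measured alone. *Ppp1r15b* and *Ppp1r15a*, regulatory subunits of the phosphatase that reverses eIF2 phosphorylation, had log2 TE of -1.17 (SE 0.08) and -0.66 (SE 0.09). *Ddit3*, the stress transcription factor CHOP, had 10.2, 12.5 and 12.9 CPM in total RNA and 5.43, 3.90 and 3.97 CPM in RPFs (-1.41, SE 0.19). *Atf4*, the main transcription factor of the integrated stress response, had 288, 286 and 301 CPM in total RNA and 258, 219 and 238 CPM in RPFs. Its log2 TE was -0.29 (SE 0.08, edgeR adjusted p = 0.0073), the RPF libraries lying below all total RNA libraries. *Ifrd1*, whose upstream frame governs decay of its mRNA, stood at -1.07, whereas *Cebpb* was higher at 0.52 (SE 0.11).

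Other mRNAs with textbook translational control varied. Of 10 polyamine and antizyme genes, 6 were lower and 1 was higher, with a median log2 TE of -0.63, beside 35.5% lower and 35.9% higher among protein-coding genes. *Odc1*, the rate-limiting enzyme of polyamine synthesis, stood at -0.72 (SE 0.08) at a unique share of 16.9%, and the antizyme inhibitor *Azin1* at -0.93 (SE 0.07), which was -0.10 per length. *Srm*, spermidine synthase, was higher at 0.53 (SE 0.11). *Oaz1*, the antizyme whose frame shifts with polyamines, stood at 0.21 (SE 0.12) and was not called. *Amd1* and *Sms* were low (-4.86 and -2.43) at a unique share of 0%. Of 7 tested genes in a list made for iron-responsive elements, 4 were lower and 2 higher, with a median of -0.33. This median was 0.23 with both strands counted and -0.12 per length. The ferritin heavy chain gene *Fth1*, which carries the element in its 5′ UTR, had 146, 126 and 88.7 CPM in total RNA and 89.0, 84.8 and 72.6 CPM in RPFs (log2 TE -0.54, SE 0.19). *Sdhb*, a subunit of mitochondrial complex II, was highest in that list (1.14), and whether its mouse mRNA carries the element was not checked. The light chain gene *Ftl1* was called lower at -1.41 on the sense strand and higher at 0.90 when both strands were counted, at a unique share of 4.40%. Among 18 selenoprotein genes, which recode a stop codon, 6 were higher and 5 lower, with a median of -0.06 that was 0.11 when scaled by library size. Of the 12 well-separated members, 6 were higher and 1 lower, with a median of 0.14. *Gpx1* and *Gpx4*, glutathione peroxidases, were not called (log2 TE -0.06 and 0.12), *Txnrd2* was highest (1.67) and *Selenok* lowest (-2.38).

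Of 76 nuclear-encoded respiratory chain genes, 60 were called higher and 8 lower, with a median log2 TE of 0.79, beside 35.9% higher and 35.5% lower among protein-coding genes. In the 36 well-separated members the median was 0.98, and 34 were higher and 0 lower. *Cyc1*, cytochrome c1 of complex III, had 59.6, 65.4 and 50.2 CPM in total RNA and 305, 324 and 302 CPM in RPFs (log2 TE 2.41, SE 0.10). *Uqcrq*, another subunit of that complex, stood at 3.06 (SE 0.25), with total RNA at 56.9, 43.0 and 29.5 CPM. The lowest abundant members were *Ndufab1* (-0.86) and *Uqcr11* (-0.76), with unique shares of 0% and 41.5%. Per length *Ndufab1* turned to 1.00 and *Uqcr11* stood at -0.40. Of 77 mitochondrial ribosomal protein genes, 47 were higher, 14 lower and 16 neither, with a median of 0.46. *Mrpl14* (2.34) and *Mrpl52* (2.31) were highest, and *Mrpl42* (-1.13) and *Mrpl9* (-0.93) lowest.

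Of 13 listed mitochondrially encoded mRNAs, which are uncapped and read by mitochondrial ribosomes, 8 were tested. Of these, 3 were lower and 1 was higher, beside 35.5% lower and 35.9% higher among protein-coding genes, with a median log2 TE of -0.33. This median was -0.90 per length and -0.16 when scaled by library size, and it ran from -0.62 without RPF library 3 to -0.16 without RPF library 1. *mt-Co1*, a subunit of cytochrome oxidase, had 3265, 3140 and 2909 CPM in total RNA and 188.5, 162 and 244 CPM in RPFs (log2 TE -3.97, SE 0.16). Its unique share was 35.2%. *mt-Nd1*, a complex I subunit, had 1347, 1086 and 1126 CPM in total RNA and 128, 113 and 188 CPM in RPFs. *mt-Nd5* and *mt-Nd6* stood at 0.66 and 0.58 and were not called. RPF library 3 had the highest CPM on *mt-Co1* and *mt-Nd1* among the RPF libraries.

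Of 20 glycolysis genes, 14 were higher and 3 lower, with a median log2 TE of 0.77 that was 0.50 per length. The shares among protein-coding genes were 35.9% higher and 35.5% lower. *Eno1* (1.80) and the glucose transporter *Slc2a1* (1.60) led, *Pgk1* was lowest (-4.50), and the transporter *Slc2a3* stood at -0.38 (SE 0.12), which was 0.01 per length. Of 34 proteasome subunits, 29 were higher and 2 lower, with a median of 0.62 that was 0.31 per length. *Psmd7* (1.92) and *Psmb2* (1.78) were highest, and *Psmd2* and *Psmc3*, both at -0.21, were the 2 called lower. Of 44 DNA replication genes, 33 were higher and 6 lower, with a median of 0.50 that was 0.16 per length. *Lig1*, the replicative DNA ligase, stood at 1.79 and the clamp loader subunit *Rfc4* at 1.39, whereas the helicase subunit *Gins3* stood at -0.84, which turned to 0.09 per length. Of 43 replication-dependent histone genes, whose mRNAs end in a stem-loop, 27 were higher and 5 lower, with a median of 0.65 that was 0.22 per length. These genes shared most of their coding sequence, with a median unique share of 12.8%.

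Of 22 chaperone genes, 12 were higher and 7 lower, with a median log2 TE of 0.55 that turned to -0.13 per length, beside 35.9% higher and 35.5% lower among protein-coding genes. *Hsph1* (1.48) and the endoplasmic reticulum chaperone *Hsp90b1* (1.09) were highest. *Hspa8*, the constitutive Hsp70, had 838, 833 and 839 CPM in total RNA and 238, 256 and 190 CPM in RPFs (log2 TE -1.87, SE 0.11) at a unique share of 4.97%. *Dnajb1*, its heat-inducible partner, stood at -1.23 (SE 0.08) at a unique share of 100%. Of 29 actin and tubulin genes, 15 were higher and 12 lower. *Capzb*, the actin capping protein, stood at 2.21 (SE 0.11), and *Tmsb10* (-3.26) and *Tuba1b* (-1.80) were lowest, at unique shares of 59.4% and 2.71%.

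Genes of T cell function lay on both sides. Of 38 surface receptors and activation markers, 22 were called higher and 7 lower, with a median log2 TE of 0.45, where 35.9% of protein-coding genes were higher and 35.5% lower. The T cell receptor component *Cd3e* had 131.5, 165 and 133 CPM in total RNA and 1038, 832 and 918 CPM in RPFs (log2 TE 2.70, SE 0.12). The other invariant chains were lower than it, with *Cd3g* at 1.01, *Cd3d* at 0.90 and *Cd247* at -0.34 (called lower). The coreceptor *Cd4* stood at 0.97. The cytokine receptor subunits *Il2rg* (2.42), *Il2rb* (0.43) and *Il2ra* (0.34) were all called higher, and *Il7r* was called lower (-0.93). Lower values were also found for *Cd69*, the early activation marker, with 374, 369 and 383 CPM in total RNA and 196, 178 and 190 CPM in RPFs (-1.0, SE 0.07), for the egress receptor *S1pr1* (-1.05, SE 0.14) and for the costimulatory receptor *Cd28* (-0.63).

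Of 20 cytokines and chemokines tested of 32 listed, 9 were higher and 2 lower, with a median log2 TE of 0.93, where the shares of protein-coding genes were 35.9% and 35.5%. The lower ones were *Osm* (-1.15) and *Tnf*, which had 87.5, 76.9 and 96.3 CPM in total RNA and 41.8, 47.1 and 48.8 CPM in RPFs (-0.92, SE 0.10). *Tgfb1*, which restrains T cell responses, had 38.2, 35.4 and 26.9 CPM in total RNA and 256, 266 and 269 CPM in RPFs (2.98, SE 0.13). *Ifng* stood at 0.70 (SE 0.15) and was called higher, and *Il2* stood at 0.29 (SE 0.15) and was not. Of the 20 genes, 5 passed the filter in a single kind of library or a mixture. The 12 well-separated members had a median of 0.72, with 7 higher and 2 lower. Without each library in turn, the median of the list ran from 0.73 to 0.95. Of 36 immediate early and AU-rich mRNAs, 18 were higher and 7 lower, with a median of 0.31 that was 0.48 per length. *Myc*, the transcription factor that drives growth after activation, had 184, 222 and 116 CPM in total RNA and 1118, 1233 and 991 CPM in RPFs (2.68, SE 0.26). *Egr3*, a transcription factor induced by the T cell receptor, stood at 2.08 (SE 0.14). *Arc* (-1.30) and *Nfkbiz* (-1.19) were lowest.

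Of 43 ribosome biogenesis factors, 18 were higher and 12 lower, with a median log2 TE of 0.04 that was -0.22 per length. These counts lay near the 35.9% higher and 35.5% lower among protein-coding genes. The 30 well-separated members had a median of -0.12, with 10 higher and 10 lower. *Gar1*, a component of snoRNA particles, stood at 2.29 (SE 0.32). *Taf1d* stood lowest at -2.91 (SE 0.09), and *Wdr43*, a small subunit processome protein, had 953, 960 and 997 CPM in total RNA and 279, 311 and 290 CPM in RPFs (-1.73, SE 0.07). Of 20 splicing factors of the SR family and Clk kinases, 7 were higher and 11 lower, with a median of -0.17 that was 0.01 when scaled by library size. *Srsf3* (-1.86, at a unique share of 6.01%) and *Clk4* (-1.69, at 99.6%) were lowest, at -0.49 and -2.28 per length, and *Srsf4* (1.84) and *Srrm1* (1.16) highest. Of 18 genes in a list of cap synthesis, cap binding and their partners, 3 were higher and 10 lower, with a median of -0.39 that was -0.06 per length. *Larp4*, which binds poly(A) and not the cap (-2.01, SE 0.12), and *Rnmt* itself (-1.77, SE 0.10) were lowest among abundant members. The value of *Rnmt* is for RNA from the gene without its floxed exon. The genes for the capping enzyme *Rngtt* (-0.51) and the RNMT activator *Ramac* (-0.52) were lower as well, and *Eif4ebp2*, which binds and inhibits EIF4E, was highest (1.61, SE 0.08).

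Of 633 long noncoding RNAs tested, 463 were called lower and 47 higher, with a median log2 TE of -1.98, beside 36.9% lower and 35.3% higher among all genes tested. Of these RNAs, 368 passed the filter in total RNA libraries alone and 37 in RPF libraries alone. *Rn7sk*, a small nuclear RNA, had 15996, 12936 and 14805 CPM in total RNA and 29.2, 53.9 and 103 CPM in RPFs (-7.90, SE 0.64). *Mir155hg* stood at -5.82 and *Malat1* at -4.40. In a list of snoRNA host genes and other long noncoding RNAs, 19 of 21 tested were lower and 1 was higher, with a median of -1.37. *Gas5*, a snoRNA host gene whose spliced RNA carries a TOP motif, stood at -1.13 (SE 0.12). The highest abundant members were *Snhg8* at -0.13 and *Dancr*, the 1 called higher, at 0.72 (SE 0.14). Of 126 snoRNAs, 92 were higher and 15 lower, against the same shares of all genes, with a median of 2.48, and 24 of them passed the filter in RPF libraries alone. Medians were 7.35 for 74 miRNA genes (59 higher, 4 lower) and 1.34 for 108 snRNA genes (58 higher, 26 lower). For 29 genes of miscellaneous RNA the median was -6.03 (2 higher, 25 lower). Small noncoding RNAs have no coding sequence, so these ratios do not measure translation. The 53 variable segments of T cell receptor genes had a median of 1.49, with 47 higher and 0 lower, and 22 of them passed in RPF libraries alone. The 28 joining segments had a median of 1.42, with 21 higher and 2 lower. The 6 constant segments had a median of -0.42, with 2 higher and 3 lower. No TE of whole receptor mRNAs is read from these segments.

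Transcript structure went with TE. Lengths and sequences were taken from the annotated transcript with the longest coding sequence. Over 10368 protein-coding genes, Spearman's rho between log2 TE and 3′ UTR length was -0.31 across genes, which are not independent replicates. Among well-separated genes, medians of log2 TE were 0.44, 0.22, -0.08 and -0.40 over 4 equal classes of genes from the shortest to the longest 3′ UTRs. RPFs arise mainly from coding sequence and total RNA from the whole transcript, so the plain ratio depends on the share of the transcript that is coding. Per length, the medians were -0.18, -0.07, 0.05 and 0.32, so that the order was turned round. For the GC content of the coding sequence the order held on both scales. Medians were -0.30, 0.03, 0.21 and 0.28 as a plain ratio and -0.34, 0.04, 0.12 and 0.22 per length, from the lowest to the highest class.

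The number of ATG triplets in the 5′ UTR, where an upstream reading frame could start, also went with TE. RPFs on such upstream frames were counted with those on the coding sequence. In well-separated genes the median log2 TE was 0.19 for 3788 genes with 0 such triplets, -0.01 for 1638 genes with 1, -0.04 for 777 genes with 2, -0.22 for 503 genes with 3 and -0.30 for 823 genes with at least 4. Per length, the medians were 0.11, -0.01, -0.06, -0.11 and -0.26. The base 3 before the start codon, where a purine favours initiation, made a smaller difference, with medians of 0.06 for A, 0.10 for G, -0.03 for C and -0.11 for T. Genes whose annotated start was C followed by a run of at least 5 pyrimidines numbered 152 among well-separated genes, with a median of 0.31 that was 0.15 per length. Over all 221 such protein-coding genes it was 0.17, or 0.03 per length, and with the longest transcript of each gene, which gave 234 such genes, it was 0.03, or -0.07 per length. The quartiles of neighbouring classes overlapped widely for every feature.

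The pattern of TE in *Rnmt* cKO cells was close to that in control cells. Across 10118 protein-coding genes tested in both, Spearman's rho between the log2 TE values was 0.93, and the values do not share libraries. In total 3130 genes were called higher and 3215 lower in both genotypes. A TE that differed between genotypes was tested in 1 edgeR fit to the 12 libraries, as the term for genotype by kind of library. Of 10668 genes, 346 (3.24%) had a higher and 705 (6.61%) a lower TE in *Rnmt* cKO cells, 9.85% in all. The count of higher genes was 148 without total RNA library 1 of control cells, 175 without library 2, 173 without total RNA library 1 of *Rnmt* cKO cells and 204 without library 2. Among protein-coding genes, 82 were called lower in *Rnmt* cKO and higher in control cells, and for 81 the difference itself was called. The opposite held for 13 genes. Both sets were picked by their calls in the same libraries, so nothing is read from how often the difference was called.

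*Rnmt* was not called in control cells (log2 TE -0.17) and was called lower in *Rnmt* cKO cells (-1.77), a difference of -1.62 (SE 0.12, edgeR adjusted p = 1.1e-06). Its level was lower in both kinds of library, and more so in RPFs. The paper reports loss of reads on the floxed exon in naive *Rnmt* cKO cells. The *Rnmt* RNA counted thus differs between genotypes, and the part of this in the TE difference was not tested. *Dnttip2*, a nucleolar protein gene chosen after its values were seen, was called higher in control and lower in *Rnmt* cKO cells. It had 74.6, 84.9 and 86.7 CPM in total RNA of control cells and 330, 312 and 298 CPM in *Rnmt* cKO cells. Its RPFs were 134, 132 and 124 CPM in control and 118.5, 131.5 and 125 CPM in *Rnmt* cKO cells, so RPFs overlapped between genotypes while total RNA did not. The difference in log2 TE was -2.01 (SE 0.10, edgeR adjusted p = 9.5e-08). *Wdr43*, called lower in both genotypes, had 322, 310 and 331 CPM in total RNA of control cells against the 953 to 997 CPM above, with 279, 253 and 274 CPM in RPFs, a difference of -1.49 (SE 0.09).

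Other genes called higher in control and lower in *Rnmt* cKO cells, also chosen after their values were seen, were *Smarcc2*, a chromatin remodelling subunit (-1.78), *Zpr1* (-1.57), *Pnn*, a splicing-associated protein (-1.57), *Sh2d2a*, the T cell specific adaptor (-1.52), *Ints12*, an Integrator subunit (-1.48), *Tpr*, a nuclear pore protein (-1.25), and *Leng1* (-1.23). *Dnajb1* differed by -1.30 (SE 0.10), from 0.04 in control cells. *Hnrnpu*, a nuclear RNA binding protein, kept a TE above the typical gene in both genotypes, at 1.97 in control and 0.79 in *Rnmt* cKO cells, a difference of -1.21 (SE 0.18). *Eprs* went from 0.24 to -0.64. Of the 43 ribosome biogenesis factors, 18 had a lower and 3 a higher TE than in control cells, and of 36 immediate early and AU-rich mRNAs 8 were lower and 0 higher, beside 6.61% lower and 3.24% higher among all genes.

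Genes with a higher TE than in control cells included *Eef1a1*. It had 3045, 2958 and 2769 CPM in total RNA of control cells and 543, 461 and 533 CPM in RPFs, and its log2 TE was -2.51 there against -1.49 in *Rnmt* cKO cells (difference 1.00, SE 0.11, edgeR adjusted p = 5.3e-05). RPFs of *Eef1a1* were 385 to 473 CPM in *Rnmt* cKO cells and overlapped with control, and total RNA did not. The 10 ribosomal protein genes with a unique share over 30% had a median of -0.78 in control and -0.03 in *Rnmt* cKO cells, and for all 10 the difference was called, beside 3.24% higher and 6.61% lower among all genes tested. TE was called higher than in control for 8 of 32 with a share under 0.5%. From 0.5 to 10% this held for 14 of 22, and from 10 to 30% for 13 of 15. Over all 79 ribosomal protein genes, 45 were called higher and 0 lower. Of 26 noncoding RNAs listed, 20 were tested for the difference, and *Snhg8* (1.36, SE 0.14) and *Dancr* (1.40, SE 0.25) were among the 7 called higher, again beside 3.24% of all genes. *Atf4* stood at -0.83 in control cells and -0.29 in *Rnmt* cKO cells (difference 0.51, SE 0.14, edgeR adjusted p = 0.028). Any RPFs on its upstream frames are part of these values.

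**Figure D4:**
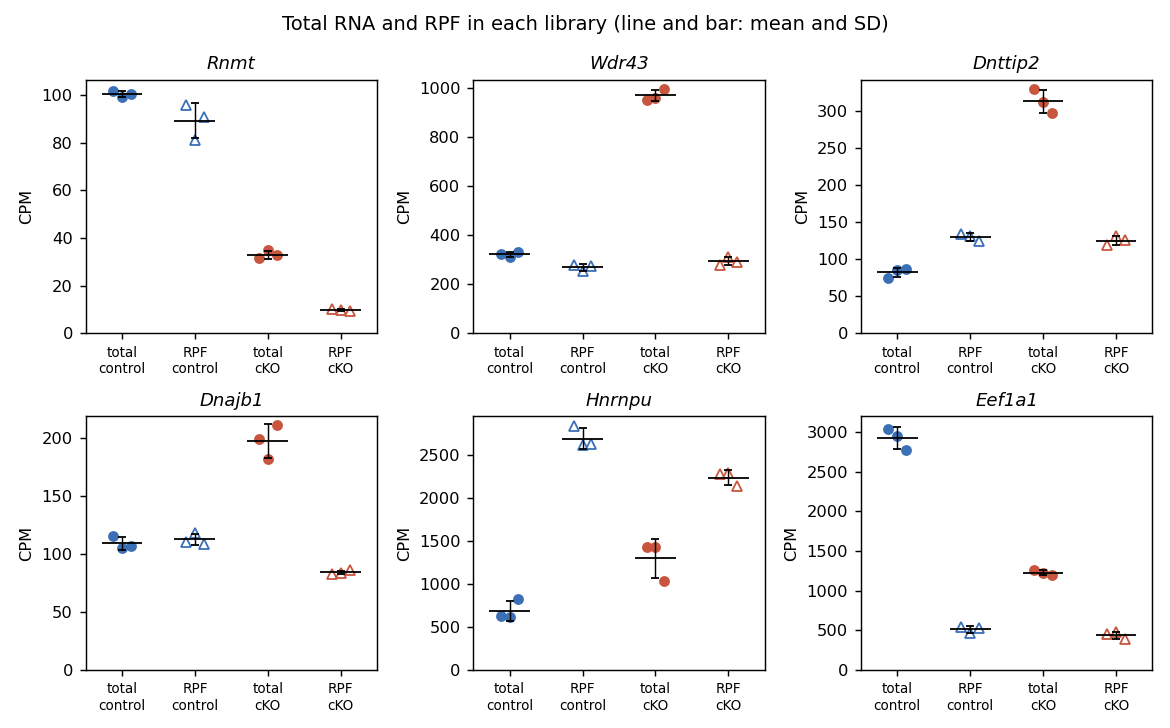
CPM (y axes, from 0) of 6 genes in each library of total RNA (filled circles) and RPFs (open triangles) from control (blue) and *Rnmt* cKO (red) cells, with means and SD (n = 3), normalised within each genotype. For *Wdr43* and *Dnttip2* total RNA is higher in *Rnmt* cKO cells at similar RPFs, and for *Eef1a1* total RNA is lower at similar RPFs.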

How the data were processed

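Gene counts deposited by the authors were used for 12 libraries. Per the labels and the study's methods, both kinds of library were made with the Illumina TruSeq Ribo Profile kit, adapters and rRNA and tRNA reads were removed with cutadapt and Bowtie, and reads were aligned to GRCm38 (mm10) and counted with STAR 2.5.2b, of which only uniquely aligned reads enter the counts. The reverse-strand counts were taken, since forward-strand counts made up 2.53% to 4.64% of both. Genes with more than 1 CPM in at least 3 of the 6 *Rnmt* cKO libraries were normalised by TMM, and RPF was tested against total RNA with the robust quasi-likelihood test of edgeR 4.0.16 (R 4.3.3), with Benjamini-Hochberg adjustment over all genes and a threshold of 0.05. Standard errors were derived from the fitted log2 ratio and its F statistic. The genotype difference was fitted to 12 libraries, with TMM within each kind and more than 1 CPM in at least 3 libraries of each kind. Control CPM were normalised within the control libraries. Nothing says whether libraries came from separate animals, so p-values measure the spread between these samples.

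Coordinates and transcripts were from GENCODE vM21, which matched 49326 of 49585 genes. The table of the authors' own comparisons was not used. Members and gene lists were chosen with earlier results of these data known. Named genes were, among protein-coding genes called without overlap of the libraries and of average log2 CPM 4 or more, the 10 highest and 10 lowest in TE, then the 10 with the most RPFs, the 2 highest and 2 lowest abundant members of each list, and a set under textbook translational control. All other named genes were chosen after their values were seen. Some genes that the rule names are not reported here. Alternatives were DESeq2 1.42.0, other filters, scalings and strands, a replicate block and leaving out each library. The script was tested on simulated data.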

Additional observations from a re-analysis of the deposited data

Results flagged for a closer look

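Of the 155 named genes tested for a genotype difference, 48 had a TE that differed between genotypes in the edgeR fit to 12 libraries at an adjusted p under 0.05, 22 higher and 26 lower in *Rnmt* cKO cells. Values are log2 TE in *Rnmt* cKO minus control. The genes include some chosen after their values were seen, in part by the direction of their TE in each genotype, so nothing is read from these counts.

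Among genes named by their place in the TE range, their RPF level, a list or textbook translational control, TE was lower in *Rnmt* cKO cells for *Rnmt* (-1.62), *Wdr43* (-1.49), *Srrm1* (-1.39), *Serf2* (-1.34), *Dnajb1* (-1.30), *Larp4* (-1.28), *Arc* (-1.22), *Hnrnpu* (-1.21), *Srm* (-0.91), *Eprs* (-0.90), *Tgfb1* (-0.83), *Psmd2* (-0.60), *Eif4ebp2* (-0.60), *Mrpl9* (-0.56), *Psmc3* (-0.46), *Actb* (-0.44) and *Tars* (-0.30). It was higher for *Dancr* (1.40), *Snhg8* (1.36), *Rpsa* (1.13), *Eef1a1* (1.00), *Rpl13a* (0.94), *Rps10* (0.84), *Rps26* (0.84), *Rpl37* (0.84), *Tmsb10* (0.71), *Gas5* (0.71), *Tpt1* (0.62), *Eif3f* (0.60), *Oaz1* (0.59), *Taf1d* (0.52), *Atf4* (0.51), *Mrpl52* (0.45) and *Sdhb* (0.37). Of these, the adjusted p was 1.1e-06 for *Rnmt*, 1.3e-07 for *Wdr43*, 5.3e-05 for *Eef1a1* and 0.028 for *Atf4*. The unique share of coding windows was 0% for *Rpsa* and *Tpt1*. It was 2.40% for *Rpl13a*, 7.24% for *Serf2*, 9.01% for *Oaz1* and 10.6% for *Rps10*. For *Rpl37* it was 11.3%, for *Eef1a1* 11.5% and for *Rps26* 18.8%. The part of shared sequence in these values was not tested, nor was that of the removed exon in the value of *Rnmt*.

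Among genes chosen after their values were seen, TE was lower for *Dnttip2* (-2.01), *Smarcc2* (-1.78), *Zpr1* (-1.57), *Pnn* (-1.57), *Sh2d2a* (-1.52), *Ints12* (-1.48), *Tpr* (-1.25), *Leng1* (-1.23) and *Adamts6* (-1.06), and higher for *Erich1* (0.68), *Coq9* (0.66), *Mtrf1l* (0.57), *Ccm2* (0.40) and *Ranbp3* (0.36).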

How the results depend on the processing

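The counts of 4159 genes with higher and 4341 with lower TE stayed within 1.5 times under all alternatives fixed at the start, from 3598 to 4874 higher and from 3626 to 6019 lower over other scalings, filters, strands and DESeq2. Without each library in turn they ran from 3561 to 3893 and from 3653 to 4150. Among the well-separated genes, a selection added after seeing the data that tests fewer genes, 2806 were higher and 2548 lower. The genotype difference, with 346 genes higher and 705 lower, ran from 148 to 436 higher and from 522 to 942 lower without each library in turn. The cause was not tested. With the replicate number as a block, 4363 genes had a higher and 4506 a lower TE, and 468 and 821 differed between genotypes. The labels do not pair the libraries, and deviations of same-numbered RPF and total RNA libraries correlated at 0.08, 0.39 and 0.25 across 7479 genes. Between libraries of unlike number, the correlations ran from -0.28 to 0.01. Deviations were taken from the mean of the libraries of each kind. Positive values for same numbers therefore push those for unlike numbers down, and the contrast is partly fixed by this. Of 2443 values of 167 named genes under the alternatives, 2357 kept direction and call, 73 lost the call, 12 gained it and 1 reversed, *Ftl1*, at 0.90 with both strands counted. Some genes given above were not among the 167 and were not followed under the alternatives. These were *Cd3g*, *Cd3d*, *Cd247*, *Cd4*, *Il2rg*, *Il2rb*, *Il2ra*, *Il7r*, *Cd28*, *Osm*, *Rngtt*, *Ramac* and *Malat1*. The scale per length was not among the alternatives counted for named genes. For described genes of the 167, the called values that it turned are given beside them. For the other genes given, values per length are not reported. The shallow RPF library 3 (4123271 counts) limits genes of few RPFs.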
